A study of Mus musculus with 24 samples.

Results

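Retinas of newborn mice that lack Nrl were compared with wild-type retinas at postnatal day 2 (P2), the earliest age of the series. Nrl is a transcription factor of the rod lineage. The comparison used 8 of the 24 arrays of the series, 4 of Nrl -/- retina and 4 of wild-type retina, which were chosen by their labelled genotype and age. Total RNA of whole retina, extracted with Trizol and labelled with biotin, was hybridised to Affymetrix oligonucleotide arrays. Strain background was mixed, from R1 and C57BL/6, and matched between the genotypes, and the other 16 arrays hold the same genotypes at P10 and at 2 months. Whether each replicate came from 1 animal, 1 litter or a pool is not given, so p-values measure a spread between samples that may be technical. For limma p-values that spread was estimated over all 24 arrays, and the exact permutation tests used the 8 arrays of P2.

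Most rods of the mouse retina are born around birth, from progenitors that are still dividing at P2. A newly formed photoreceptor first expresses Otx2 and Crx, which direct both rods and cones, and Nrl then commits it to the rod fate; without Nrl, cells that would have become rods take on features of short-wavelength cones. The rods of a P2 retina have not yet grown outer segments, and most phototransduction genes reach their adult levels only later. The inner surface of the retina rests on a basement membrane of type IV collagen and laminin, made in part by neighbouring tissues such as lens and vessels.

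Each value is a linear intensity of 1 probe set, a group of short probes for 1 transcript, and per-array values are listed in the order of replicates 1 to 4, also called arrays 1 to 4 of a genotype. A log2 change is knockout minus wild type, given with its standard error from limma, and a probe set was called at a Benjamini-Hochberg adjusted p under 0.05 over 12422 probe sets. Where a gene has several probe sets, the one with the highest mean stands for it. Of the 12422, 175 were called (1.41%), 112 higher in the knockout (0.902%) and 63 lower (0.507%). The effects were small: 136 of the 175 changed by under 1.5-fold, 3 rose and 7 fell by at least 2-fold, and the median called change was 0.44 among rises and -0.42 among falls. The 4 knockout values lay wholly above the 4 wild-type values in 90 of the 112 and wholly below in 58 of the 63; over all probe sets, called or not, 2.86% lay wholly above and 2.69% wholly below. The number of calls depended on single libraries, and ranged from 84 without knockout replicate 4 to 552 without knockout replicate 3. It was 93 without wild-type replicate 3, 100 without wild-type replicate 1 and 111 without knockout replicate 2. A fit to the P2 arrays alone called 41, all among the 175.

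Several array measures bear on these values. Array medians were 61.7 to 70.2, lowest in knockout replicate 1, and did not separate the genotypes (exact two-sided permutation p = 0.886). Array weights, which count noisier arrays less and were used in an alternative fit only, were also lowest in knockout replicate 1, at 0.206. The other arrays compared had weights from 0.756 in knockout replicate 3 to 1.69 in knockout replicate 4. Correlations over all probe sets were 0.983 to 0.996 within a genotype and 0.981 to 0.995 between genotypes, so that arrays of 1 genotype were hardly more alike than arrays of different genotypes. Knockout replicate 3 correlated at least as closely with the other genotype as with its own, at 0.983 to 0.994 with the other knockout arrays and 0.993 to 0.995 with the wild-type arrays, but had the knockout values of Sag, Pdc and Pde6b given below. Lens genes varied widely between arrays: the summed intensity of the 12 measured was 701, 932, 5012 and 2110 in the knockout arrays and 2682, 834, 899 and 861 in wild type. Whether this reflects lens tissue in some samples was not tested. Xist, the RNA of the inactive X chromosome in females, read 313, 193, 159 and 187 in the knockout and 7.43, 9.35, 126 and 96.4 in wild type (exact two-sided permutation p = 0.0286, the smallest that 4 against 4 arrays allow; limma adjusted p = 0.130). Eif2s3y, on the Y chromosome, read 28.4, 88.5, 86.0 and 83.0 in the knockout and 131, 136, 69.0 and 80.9 in wild type. Xist signal was thus low in wild-type replicates 1 and 2 only, and the part of sex in the results was not tested; values by Xist signal are given for 2 X-linked genes.

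Nrl itself read 45.2, 49.0, 56.4 and 54.5 in the 4 knockout arrays and 61.5, 60.1, 60.1 and 59.9 in the 4 wild-type arrays. Every knockout value was below every wild-type value, yet the log2 change of -0.24 ± 0.11 did not pass the limma test (adjusted p = 0.300; exact two-sided permutation p = 0.0286). Whether its probes match sequence that the knockout allele lacks is not given in the labels, so this value is a weak check of the labels. At P10 the change was -1.45 ± 0.11 (limma adjusted p = 7.88e-11).

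Among genes used by both rods and cones, 5 of the 12 measured of 28 listed were lower and 0 were higher, where 0.618% of all 8251 genes were called lower, 1.1% higher and 1.72% in either direction. Those 5 did not overlap between genotypes, where 3.15% of all genes were non-overlapping and lower. Among rod genes 1 of 9 measured was lower and 0 were higher, and among cone genes 1 of 10 measured was higher and 0 were lower. The 200 bases before the annotated start of 5 of the fallers and of the called cone gene, Gnat2, are printed here, leaving out Unc119, which has 3 annotated starts, because these genes moved apart in retinas that lack a DNA-binding regulator; Gnat2 was added after its values were seen. The sequences are from RefSeq on GRCm38.p6, 5′ to 3′ on the strand of the gene, and capitals mark 2 motifs searched on both strands: TAATCC, the core of CRX and OTX2 sites, read as GGATTA on the opposite strand, and TGCTGA, a partial site of the Maf family to which NRL belongs, read as TCAGCA on the opposite strand.
Sag, chr1:87803480-87803679, plus strand: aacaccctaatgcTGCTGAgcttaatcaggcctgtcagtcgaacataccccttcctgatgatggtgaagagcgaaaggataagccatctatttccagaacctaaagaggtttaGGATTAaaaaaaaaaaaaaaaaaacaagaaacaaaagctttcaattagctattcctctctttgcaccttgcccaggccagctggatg
Pdc, chr1:150319217-150319416, plus strand: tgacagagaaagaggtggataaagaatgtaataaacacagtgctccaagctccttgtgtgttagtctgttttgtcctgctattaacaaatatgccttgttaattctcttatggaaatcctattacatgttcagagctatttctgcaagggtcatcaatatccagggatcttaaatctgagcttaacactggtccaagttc
Pde6b, chr5:108388173-108388372, plus strand: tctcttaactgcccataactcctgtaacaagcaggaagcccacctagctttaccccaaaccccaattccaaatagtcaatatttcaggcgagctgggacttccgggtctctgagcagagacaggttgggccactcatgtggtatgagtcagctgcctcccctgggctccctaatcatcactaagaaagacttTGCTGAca
Rom1, chr19:8929357-8929556, minus strand: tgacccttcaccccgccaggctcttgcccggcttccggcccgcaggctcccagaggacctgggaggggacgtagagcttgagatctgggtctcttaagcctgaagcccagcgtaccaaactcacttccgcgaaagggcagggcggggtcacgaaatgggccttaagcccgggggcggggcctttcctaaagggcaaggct
Abca4, chr3:122044260-122044459, plus strand: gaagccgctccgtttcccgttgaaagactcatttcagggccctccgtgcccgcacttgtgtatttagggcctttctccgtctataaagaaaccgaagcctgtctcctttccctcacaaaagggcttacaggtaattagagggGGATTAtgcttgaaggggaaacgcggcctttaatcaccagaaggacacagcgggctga
Gnat2, chr3:108092866-108093065, plus strand: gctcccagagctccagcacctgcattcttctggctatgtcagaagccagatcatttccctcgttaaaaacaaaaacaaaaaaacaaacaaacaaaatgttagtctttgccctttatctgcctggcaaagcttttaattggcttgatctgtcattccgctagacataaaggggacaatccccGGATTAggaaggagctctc

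In Sag the TAATCC core lay 87 to 82 bases before the start on the opposite strand and TGCTGA lay 187 to 182 bases before it. Pde6b held TGCTGA 8 to 3 bases before its start. Abca4 held TAATCC on the opposite strand 58 to 53 bases before the start, and Gnat2 held it there 19 to 14 bases before. Pdc and Rom1 held neither motif in this window. Of the 3 windows of Unc119, the first held neither, the second held TAATCC 118 to 113 bases before its start and the third held TGCTGA 198 to 193 bases before, both on the opposite strand. Of all 32851 promoter windows of this length in the same table, 4.913% held TAATCC and 13.24% held TGCTGA. These matches describe letters in a window, and binding was not measured.

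The largest fall was that of Sag, which encodes the arrestin that quenches light-activated opsin. It read 49.1, 26.7, 52.9 and 53.4 in the 4 knockout arrays and 157, 283, 255 and 284 in the 4 wild-type arrays. The groups were far apart, and the lowest knockout array was replicate 2. The log2 change was -2.44 ± 0.17 (limma adjusted p = 4.79e-10).

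Pdc, phosducin, which binds the βγ subunits of transducin, read 85.8, 61.3, 99.0 and 89.3 in the knockout and 344, 415, 362 and 396 in wild type. All knockout arrays stood well below all wild-type arrays, and the log2 change was -2.20 ± 0.10 (limma adjusted p = 2.84e-14). A second Pdc probe set gave a log2 change of -0.39 that did not pass (adjusted p = 0.223), so the size of the fall differed between probes of 1 gene.

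Pde6b encodes a catalytic subunit of the rod phosphodiesterase, and was the only rod-list gene called. Its values were 18.1, 14.2, 20.4 and 18.2 in the knockout and 43.0, 45.3, 51.8 and 44.0 in wild type, 2 tight groups with no overlap. The log2 change was -1.38 ± 0.13 (limma adjusted p = 5.72e-08). The knockout values are low, and the array's background is unknown here, so the true size of this fall is uncertain. A second probe set gave -0.46 (adjusted p = 0.103).

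Rom1, a tetraspanin of the outer segment disc rim, read 25.6, 23.5, 35.4 and 34.2 in the knockout against 68.6, 73.0, 68.2 and 75.3 in wild type. The 2 groups were separate, with knockout replicates 3 and 4 above replicates 1 and 2, and the log2 change was -1.28 ± 0.11 (limma adjusted p = 1.59e-08). Its other probe set gave -0.27 (adjusted p = 0.300).

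The smallest called falls of this list were in Abca4 and Unc119. Abca4, the retinoid flippase of disc membranes, read 104, 100.1, 118 and 121 in the knockout and 137, 155, 173 and 165 in wild type, with a log2 change of -0.51 ± 0.09 (limma adjusted p = 0.00357). Unc119, which carries acylated transducin α, read 526, 456, 536 and 499.8 in the knockout and 637, 692, 603 and 651 in wild type, with a log2 change of -0.36 ± 0.07 (adjusted p = 0.00810). Neither gene overlapped between genotypes. Sag, Pdc, Pde6b, Rom1, Abca4 and Unc119 stayed called when any single array was left out.

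Other photoreceptor genes gave small differences that were not called. Gnat1, rod transducin α, read 13.5, 11.7, 15.6 and 10.9 in the knockout and 13.1, 12.8, 25.9 and 15.2 in wild type, 2 overlapping sets of low values with a log2 change of -0.32 ± 0.35 (adjusted p = 0.734). Reep6, an endoplasmic reticulum protein of rods, gave -0.25 ± 0.09 (adjusted p = 0.179). Tulp1, Guca1a, Rcvrn and Prph2 gave -0.14, -0.27, 0.20 and 0.05. The median log2 change was -0.21 over the 12 genes shared by rods and cones and -0.09 over the 9 rod genes, beside -0.01 over all genes. In RNA of whole retina, fewer cells of a type and less RNA per cell cannot be told apart, here and in every list that follows.

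Among cone genes the differences were smaller and mostly not called. Gnat2, cone transducin α, read 113, 104, 123 and 130.2 in the knockout and 63.0, 96.9, 63.0 and 103 in wild type. The groups only just parted, because wild-type replicates 2 and 4 nearly reached the knockout values, and the log2 change was 0.56 ± 0.13 (limma adjusted p = 0.0211). The call was lost without knockout array 4 or wild-type array 1 or 3 (adjusted p = 0.0990, 0.112 and 0.131). Gnb3, the β subunit of cone transducin, read 505, 521, 795 and 701 against 336, 428, 447 and 500.5, without overlap, and did not pass (0.55 ± 0.15, adjusted p = 0.0568). Opn1sw, the short-wavelength cone opsin, read 386, 376, 426 and 426 against 259, 423, 238 and 361, with wild-type replicate 2 inside the knockout range (0.37 ± 0.12, adjusted p = 0.136). Across the 10 cone genes the median change was 0.10, and 3 of the 10 were non-overlapping and higher, where 3.03% of all genes were.

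**Figure D1:**
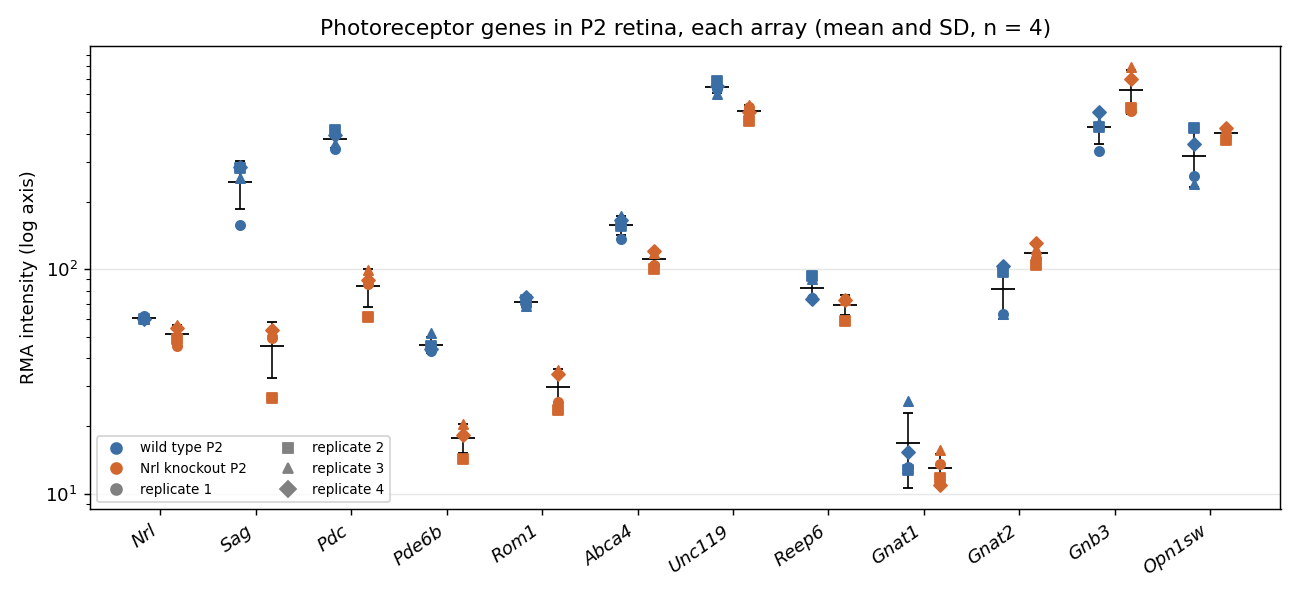
RMA intensity, on a log axis, of Nrl and 11 photoreceptor genes in each of the 4 wild-type (blue) and 4 knockout (orange) P2 arrays, with a marker shape per replicate and bars for the mean and SD. Sag, Pdc, Pde6b and Rom1 show 2 well separated groups, Gnat2 and Gnb3 show neighbouring groups, and Gnat1 overlaps.

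Of 22 listed regulators of photoreceptor fate 16 were measured, 2 were called higher and 0 lower, where 1.1% and 0.618% of all genes were. Crx, the homeobox activator upstream of both photoreceptor types, had a log2 change of -0.23 that did not pass (adjusted p = 0.149). Prdm1, which holds new photoreceptors back from the bipolar fate, and Neurod1, a basic helix-loop-helix factor of photoreceptors, gave 0.16 and 0.13. Rb1, the retinoblastoma gene, read 42.3, 38.9, 37.8 and 37.6 in the knockout and 24.8, 25.6, 21.0 and 26.9 in wild type, without overlap (0.68 ± 0.09, limma adjusted p = 3.09e-05); it lies within 20 Mb of Nrl, a position taken up below. A dimmer Rb1 probe set gave 0.40 (adjusted p = 0.139). Meis2, a homeobox gene, was higher by 0.37 ± 0.10 (adjusted p = 0.0482), a call lost without knockout array 2 or 4 or any 1 wild-type array (adjusted p = 0.174 and 0.208, and 0.0554 to 0.184).

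Of 22 progenitor genes measured, 3 were called higher and 0 lower, where 1.1% and 0.618% of all genes were. The median log2 change of the 22 was 0.04. Id2, an inhibitor of basic helix-loop-helix factors, read 285, 284, 253 and 299 in the knockout and 178, 215, 179.9 and 204 in wild type (0.53 ± 0.09, limma adjusted p = 0.00109). The 2 groups did not overlap. Fgf15, a growth factor of dividing retinal progenitors, read 214, 176, 158 and 191 against 132, 142, 144 and 141 (0.40 ± 0.09, adjusted p = 0.0184). Atoh7, which makes progenitors competent for the ganglion cell fate, read 348, 309, 321 and 279.6 against 248, 268, 244 and 258 (0.30 ± 0.07, adjusted p = 0.0332). The Fgf15 call was lost without knockout array 1 or 4 or wild-type array 1 (adjusted p = 0.0725, 0.0785 and 0.0731). That of Atoh7 was lost without knockout array 1 or 2 or wild-type array 1, 3 or 4 (adjusted p = 0.119, 0.0762, 0.0988, 0.130 and 0.0528). Sox2, a core progenitor factor, gave 0.44 ± 0.16 and did not pass (adjusted p = 0.183).

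Of 46 measured genes of the cell cycle and DNA replication, 3 were called higher and 0 lower. The shares over all genes were 1.1% and 0.618%. The log2 change was above 0 in 35 of the 46, with a median of 0.11, where 3796 of all 8251 genes were above 0. Pola1, the catalytic subunit of DNA polymerase α, read 242, 171, 159 and 194 in the knockout and 119.6, 123, 108 and 142 in wild type (0.63 ± 0.12, limma adjusted p = 0.00482), a call lost without replicate 1 of both genotypes (adjusted p = 0.0603). Pola1 is X-linked; its wild-type values were 119.6 and 123 in the arrays with little Xist signal and 108 and 142 in the other 2. Pcna, the sliding clamp of replication forks, was higher by 0.42 ± 0.10 (adjusted p = 0.0211), and Mcm3, of the replicative helicase, by 0.31 ± 0.08 (adjusted p = 0.0332). Pcna lost its call without knockout array 2 or 4 or wild-type array 1 or 3 (adjusted p = 0.0969, 0.0897, 0.0992 and 0.0920). Mcm3 lost its call without knockout array 1, 2 or 4 or wild-type array 1, 2 or 3 (adjusted p = 0.119, 0.0764, 0.110, 0.128, 0.0691 and 0.100).

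Knockout replicate 3 carried the lowest values of this group among the knockout arrays. The summed intensity of the 46 genes was 19410, 19004, 17630 and 19158 in the knockout and 16026, 17752, 16788 and 18511 in wild type, so that by this sum replicate 3 lay inside the wild-type range. The sum is weighted to bright genes. The median log2 intensity of the 46 was 7.99, 7.74, 7.53 and 7.75 in the knockout and 7.53, 7.69, 7.69 and 7.77 in wild type. By that median only knockout replicate 1 lay above the wild-type arrays. Leaving out single arrays gave 1 to 6 of the 46 called higher, with the 6 when replicate 3 was left out, and leaving out replicate 1 of both genotypes gave 0. These counts moved with those over all probe sets, of which 334 were called higher without knockout replicate 3 and 51 without replicate 1 of both genotypes, against 112 from all arrays. Birc5, survivin, a chromosomal passenger of mitosis, illustrates the spread with 324, 351, 215 and 360.2 in the knockout and 162, 239, 198 and 300.1 in wild type (0.48 ± 0.14, adjusted p = 0.0932); it was called without knockout replicate 3 (adjusted p = 0.00544) and without wild-type replicate 4 (adjusted p = 0.0190).

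Outside these lists, 2 genes of the dividing cell were among the 15 largest rises. Pttg1, securin, which keeps sister chromatids from separating before anaphase, read 413, 359.6, 371 and 394 in the knockout and 233, 231, 242 and 248 in wild type, 2 tight groups (0.69 ± 0.08, limma adjusted p = 2.54e-06). It stayed called in every alternative fit that was run, but a dimmer probe set gave 0.22 (adjusted p = 0.200). Slbp, which binds the stem-loop of histone mRNA, read 68.2, 91.9, 66.4 and 87.5 against 42.0, 56.0, 52.3 and 58.9 (0.58 ± 0.11, adjusted p = 0.00472).

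Among matrix genes, 3 collagens rose. Of 62 matrix genes measured of 73 listed, these 3 were called higher and 0 lower, and 3 were called higher when any single array was left out. From all arrays, 1.1% of all genes were called higher and 0.618% lower. The median log2 change of the 62 was -0.02, with 26 above 0 and 36 below. Col4a1, the α1 chain of type IV collagen, read 253, 233, 235 and 266 in the knockout and 110.5, 165, 109 and 128 in wild type. The knockout values were close together and the highest wild-type array, replicate 2, stayed well below them (0.96 ± 0.10, limma adjusted p = 8.59e-07).

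Col4a2 encodes the α2 chain, which joins α1 chains in the trimer. It read 217, 203, 211 and 177 in the knockout and 152, 142, 147 and 158 in wild type, again without overlap (0.43 ± 0.07, limma adjusted p = 0.000495). The annotated starts of Col4a1 and Col4a2 lie 21 bases apart on opposite strands of chromosome 8 (GRCm38.p6), so both genes are read outward from 1 region. Col5a2, a fibrillar collagen chain, read 42.2, 28.4, 29.1 and 36.5 against 18.8, 16.98, 18.3 and 20.1 (0.86 ± 0.12, adjusted p = 0.000174). Lens capsule and vessels also contain type IV collagen. In the order of replicates, the lens sums given above were 701, 932, 5012 and 2110 in the knockout and 2682, 834, 899 and 861 in wild type. The 18 measured vascular genes, 0 of them called, summed to 1222 to 1338 in the knockout and 1238 to 1297 in wild type. The part of either tissue in the collagen values was not tested.

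**Figure D2:**
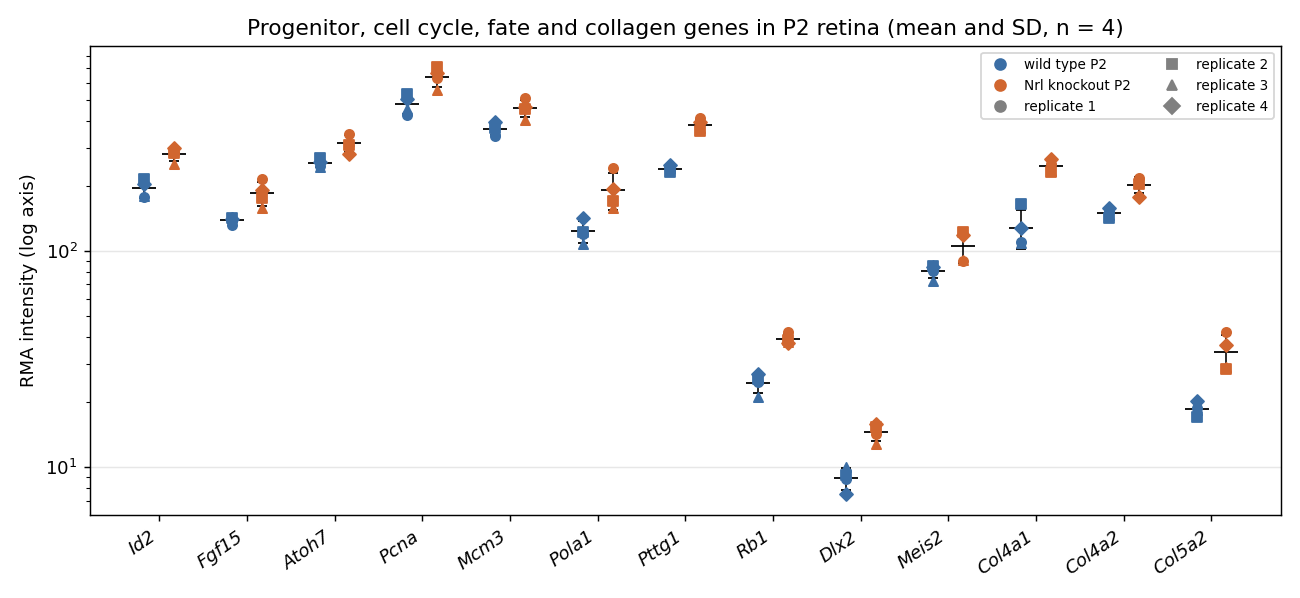
RMA intensity, on a log axis, of 13 progenitor, cell cycle, fate and collagen genes in each of the 4 wild-type (blue) and 4 knockout (orange) P2 arrays, with a marker shape per replicate and bars for the mean and SD. Col4a1, Col4a2, Col5a2 and Pttg1 were higher in every knockout array than in any wild-type array.

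Genes of the secretory pathway included the largest called rise among genes taken by their brightest probe set. Ssr1, a subunit of the translocon-associated protein complex, read 199, 225, 175 and 215 in the knockout and 100.1, 90.7, 93.7 and 76.1 in wild type (1.18 ± 0.10, limma adjusted p = 1.37e-08). Every knockout value was above every wild-type value, but a second probe set of Ssr1 gave only 0.10 (adjusted p = 0.819). Pdia3, a disulphide isomerase of glycoprotein folding, gave 0.57 ± 0.12 (adjusted p = 0.0112) and lost its call without knockout array 4 or wild-type array 1 (adjusted p = 0.0525 and 0.0636). These were the 2 called higher of 27 measured, with 0 called lower and a median of 0.09. Calls over all genes were 1.1% higher and 0.618% lower.

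Glycolytic enzymes were mostly higher in the knockout, with 1 called lower. Of 16 measured, 12 had a log2 change above 0, with a median of 0.13, where 3796 of all 8251 genes were above 0. Of the 16, 3 were called higher and 1 lower, where 1.1% and 0.618% of all genes were. Their summed intensity was 13822 to 15643 in the knockout and 11733 to 13724 in wild type. Tpi1, triosephosphate isomerase, read 1387, 1339.8, 1295 and 1484 in the knockout and 1000.0, 986, 1017 and 1084 in wild type (0.43 ± 0.07, limma adjusted p = 0.00123). Pgk1, phosphoglycerate kinase, gave 0.35 ± 0.08 (adjusted p = 0.0211) and Pgam1, phosphoglycerate mutase, 0.31 ± 0.07 (adjusted p = 0.0262). Aldoc, the aldolase of brain and glia, was lower, with 65.1, 79.4, 75.1 and 72.5 in the knockout and 98.0, 118, 93.3 and 113 in wild type (-0.53 ± 0.12, adjusted p = 0.0185). The calls of Pgk1, Pgam1 and Aldoc were lost on leaving out single arrays. Pgk1 lost its call without knockout array 1 or 4 or wild-type array 1 or 3 (adjusted p = 0.0565, 0.104, 0.0740 and 0.100). Pgam1 lost its call without knockout array 1, 2 or 4 or wild-type array 1 or 3 (adjusted p = 0.0600, 0.0894, 0.145, 0.0982 and 0.102). Aldoc lost its call without knockout array 1 or 4 or wild-type array 2 or 4 (adjusted p = 0.0600, 0.0593, 0.0753 and 0.0510). Pgk1 is X-linked, and its wild-type values were 1077 and 1131 in the arrays with little Xist signal and 1042 and 1194 in the other 2.

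Of 14 heat shock genes measured, 1 was called higher and 0 lower, where 1.1% and 0.618% of all genes were. Hspa4, an Hsp110-family chaperone, gave 0.55 ± 0.09 (limma adjusted p = 0.00123), while its 4 other probe sets gave -0.02 to -0.15, none of them called. Of 18 immediate early genes, which rise within minutes of stress or handling, 0 were called. Egr1, Myc and Dusp1 gave -0.30, 0.22 and 0.21.

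The calls among markers of other neurons were all rises. Of 22 amacrine and horizontal cell genes, 2 were called higher and 0 lower, where 1.1% and 0.618% of all genes were. Meis2, already described, was 1 of the 2. The other was Dlx2, a homeobox gene of inhibitory neurons, with 14.3, 15.3, 12.8 and 15.9 in the knockout and 8.82, 9.23, 10.0 and 7.54 in wild type (0.71 ± 0.09, limma adjusted p = 2.76e-05). These are among the lowest intensities described here, and the 2 groups did not overlap. Tfap2b, a transcription factor of amacrine cells, gave 0.40 ± 0.12 and did not pass (adjusted p = 0.110).

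Of 16 ganglion cell genes measured, 14 had a log2 change above 0, with a median of 0.15, where 3796 of all 8251 genes were above 0. Among them 2 were called higher and 0 lower: Gap43, a growth cone protein (0.41 ± 0.11, limma adjusted p = 0.0483), and Ina, the neurofilament α-internexin (0.33 ± 0.09, adjusted p = 0.0447). Gap43 was no longer called without any 1 array other than knockout replicate 3 (adjusted p = 0.0764 to 0.160). Ina was no longer called without knockout array 1, 2 or 4 or wild-type array 1, 3 or 4 (adjusted p = 0.0750, 0.140, 0.0943, 0.134, 0.171 and 0.0572). A dimmer Ina probe set was also called higher, by 0.51 ± 0.10 (limma adjusted p = 0.00419), without overlap between genotypes. Of all genes, 1.1% were called higher and 0.618% lower. Of 6 measured bipolar cell genes 0 were called, and Trpm1, the channel of ON bipolar cells, gave -0.09.

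Glial, immune and non-retinal markers gave 1 call. None of 12 Müller glia genes, 6 astrocyte genes, 17 microglia and macrophage genes, 18 vascular genes, 6 blood genes and 12 lens genes was called in either direction. Over all genes 1.72% were called. Glul, glutamine synthetase of Müller glia, gave 0.27, and Pax2, which marks astrocytes of the optic nerve head, gave -0.18. Microglial genes were below 0 in 14 of 17, where 4455 of all 8251 genes were. Their summed intensity was 791 to 954 in the knockout and 938 to 999 in wild type. Csf1r, their growth factor receptor, gave -0.32 ± 0.12 (adjusted p = 0.221). In these lists the largest uncalled changes were those of lens crystallins, 0.89 for Crygd, 0.86 for Cryge and 0.83 for Cryba1, and Crygd read 88.3, 91.3, 943 and 478 in the knockout and 550.4, 74.9, 93.0 and 80.2 in wild type. High values therefore came from knockout replicates 3 and 4 and wild-type replicate 1, not from 1 genotype. The call was Pmel, a melanosome protein of the pigment epithelium, with a log2 change of -0.38 ± 0.08 (limma adjusted p = 0.0126), 1 of 10 genes measured in that list. It was lost without knockout array 4 or wild-type array 1 (adjusted p = 0.0563 and 0.0627).

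Signalling and clock genes gave 2 calls, where 1.1% of all genes were called higher and 0.618% lower. Of 33 genes of BMP and TGF-β signalling 1 was called higher, Id2, and 0 lower. Smad7, an inhibitor in that pathway, gave 0.33 ± 0.09 (adjusted p = 0.0612). Of 36 Wnt genes 0 were called, with a median of -0.07, and Dvl2, Dkk3 and Wnt7a gave -0.36, -0.21 and -0.21. Of 14 circadian genes 1 was called lower, Tef, a clock-controlled transcription factor (-0.30 ± 0.07, limma adjusted p = 0.0332), and 0 were called higher. That call was lost without knockout array 2 or 4 or any 1 wild-type array (adjusted p = 0.0888 and 0.152, and 0.0538 to 0.112). Cry1 and Per1, repressors of the clock, gave -0.32 ± 0.09 (adjusted p = 0.0535) and -0.32 ± 0.11 (adjusted p = 0.154). The summed intensity of the 14 clock genes was 1373 to 1396 in the knockout and 1498 to 1556 in wild type, which did not overlap. Tef and Cry1 made up much of that gap, averaging 303 and 212 in the knockout and 373 and 265 in wild type. The sums of the cone, shared photoreceptor, ganglion cell, glycolysis and sex-linked lists did not overlap between genotypes either. Over the 14 genes the median log2 change was -0.05, with 5 above 0 and 9 below. The hour of dissection is not given in the labels, and its part was not tested.

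**Figure D3:**
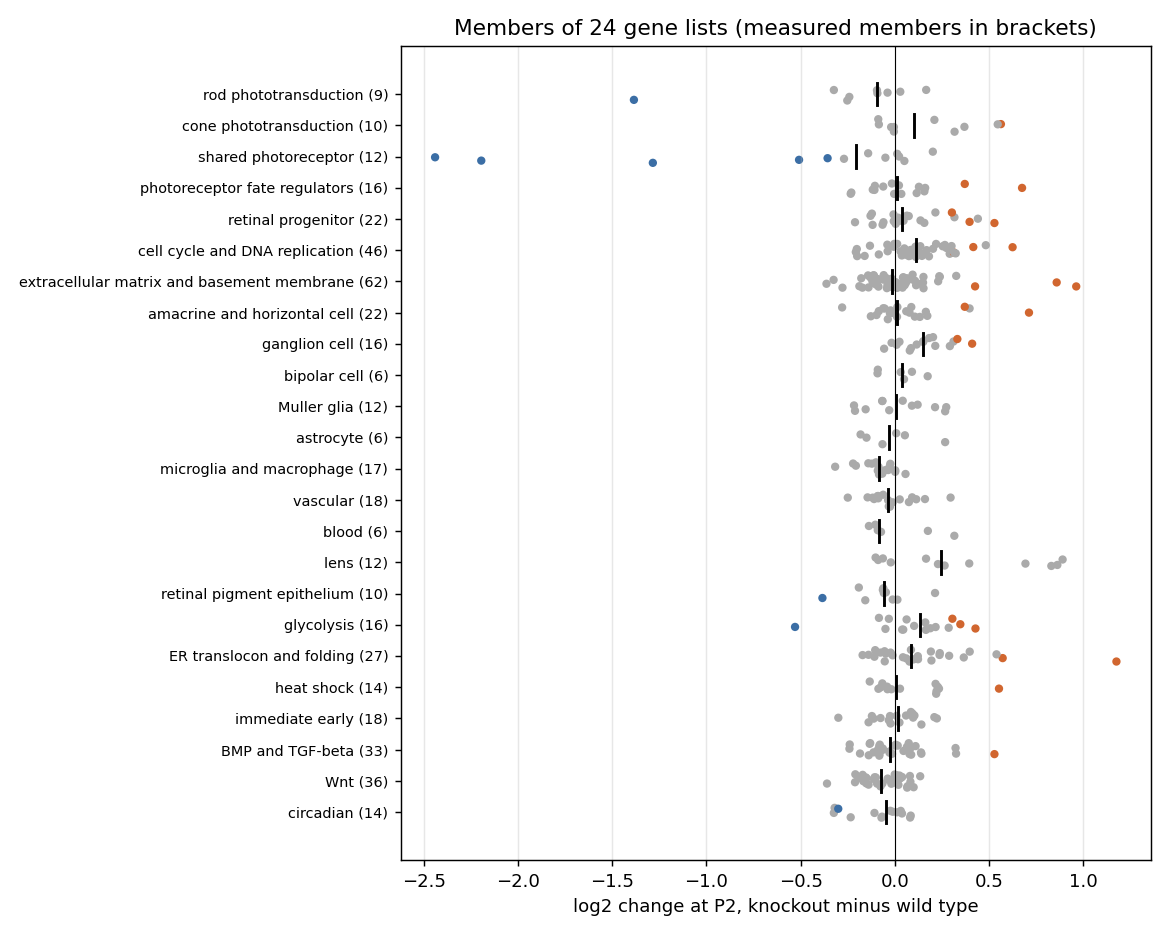
Log2 change at P2, knockout minus wild type, of every measured member of 24 gene lists (points), with each list's median (black tick). Members called higher are orange, called lower blue and not called grey; the medians lie near 0 in most lists, lower among the genes shared by rods and cones at -0.21 and higher among ganglion cell genes at 0.15 and lens genes at 0.25.

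The remaining large falls belonged to no list. Ankrd33b, an ankyrin repeat protein, read 88.0, 67.9, 149 and 108 in the knockout and 232, 210.3, 204 and 183 in wild type (-1.06 ± 0.21, limma adjusted p = 0.00608). The 2 groups were separate, but the call was lost without replicate 1 of both genotypes (adjusted p = 0.0718). Fezf2, a zinc-finger repressor of forebrain development, read 119, 111, 118 and 110.0 against 166, 182, 171 and 177, 2 tight groups (-0.60 ± 0.08, adjusted p = 3.07e-05). Pkig, an inhibitor of protein kinase A, fell by 0.68 (adjusted p = 0.000470), as did Slc1a5, a transporter of neutral amino acids, by the same amount (adjusted p = 0.000722). Ing1, a chromatin reader, gave -0.62 ± 0.09 (adjusted p = 0.000335), Dctn5, a dynactin subunit, -0.62 ± 0.13 (adjusted p = 0.00951), and the pseudogene Gpr137b-ps -0.59 ± 0.11 (adjusted p = 0.00357).

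Snhg6, a small nucleolar RNA host gene, divided the knockout arrays. It read 211, 53.9, 187 and 44.8 in the knockout, with replicates 1 and 3 high and 2 and 4 low, and 304, 323, 324 and 334 in wild type (-1.70 ± 0.40, limma adjusted p = 0.0223). The uncharacterised transcript 6430706D22Rik divided the same way, with 443, 272, 395 and 266 against 489, 528, 516 and 558 (-0.64 ± 0.15, adjusted p = 0.0229). Snhg6 lost its call without knockout array 2 or 4 or wild-type array 1, 2 or 3 (adjusted p = 0.113, 0.142, 0.0581, 0.0550 and 0.0694). 6430706D22Rik lost its call without knockout array 2 or 4 or wild-type array 2, 3 or 4 (adjusted p = 0.113, 0.139, 0.0586, 0.0661 and 0.0563). A second Snhg6 probe set gave -0.05.

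Among the other large rises were 2 proteins that bind nascent RNA. Hnrnpc read 42.7, 56.6, 44.1 and 59.9 in the knockout and 23.2, 29.2, 23.4 and 33.0 in wild type (0.90 ± 0.15, limma adjusted p = 0.000770), and Hnrnpl read 174, 197, 242 and 206 against 99.8, 112, 142 and 93.6 (0.88 ± 0.13, adjusted p = 0.000166). Neither overlapped between genotypes. The transcripts 2700099C18Rik, C330007P06Rik and D17H6S56E-5, for which no function is given here, had log2 changes of 0.74 ± 0.14, 0.67 ± 0.12 and 0.61 ± 0.10 (adjusted p = 0.00534, 0.00356 and 0.00123). Other probe sets of C330007P06Rik gave 0.01 and 0.10 and another of D17H6S56E-5 gave 0.01, none called. Only 2700099C18Rik lost its call without replicate 1 of both genotypes (adjusted p = 0.0537).

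**Figure D4:**
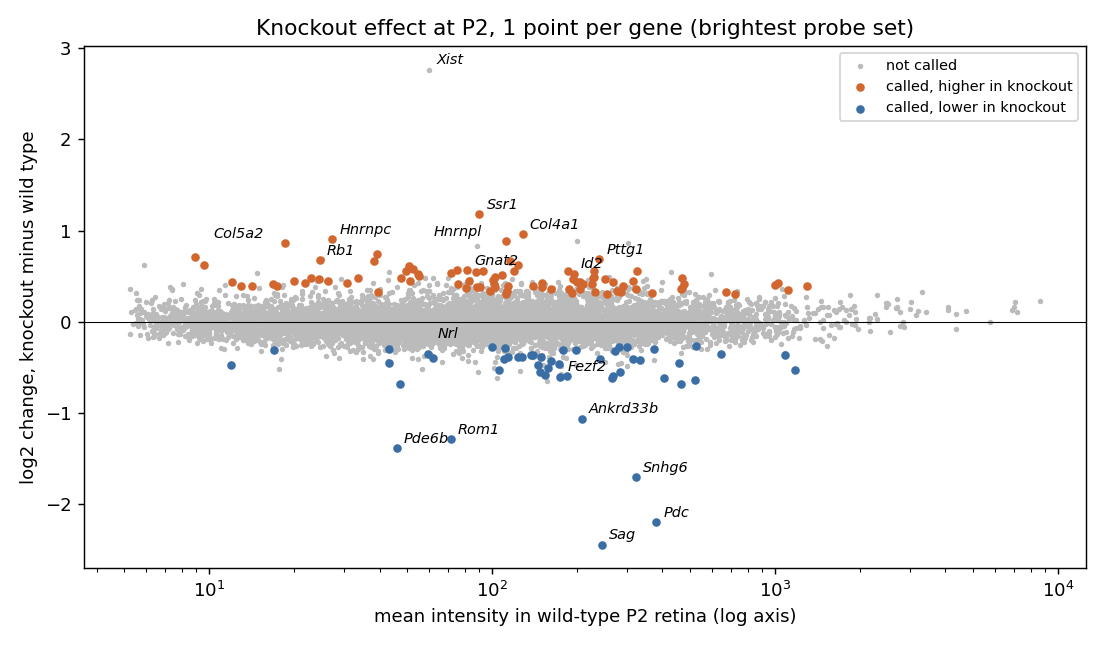
Log2 change at P2, knockout minus wild type, of each gene's brightest probe set against its mean intensity in wild-type P2 retina (log axis), with genes called higher in orange, called lower in blue and not called in grey. Among called genes only Sag, Pdc, Snhg6, Pde6b, Rom1, Ankrd33b and Ssr1 lie more than 1 log2 unit from 0, and Xist lies highest without being called.

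Several of the genes named above lie close to Nrl on its chromosome. Of 8241 genes with a position, 174 lay within 20 Mb of Nrl (GRCm38.p6), and 5 of them were called higher and 5 lower, which is 5.75%, beside 1.62% of the other genes; the difference between these shares was not tested. The genes called lower were Chd8, a chromatin remodeller (-0.60 ± 0.09, limma adjusted p = 0.000550), Tox4, Ghitm, Dlgap5 and a probe set annotated to Mir686 (-0.59 ± 0.11, adjusted p = 0.00516). Those called higher were Rb1, Hnrnpc, Parp2, Ndrg2 and Pnp. Mice carrying a targeted allele can keep a stretch of the chromosome from the strain of the targeted cells around it; which genes here carry such a stretch was not tested.

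At P10 and 2 months, measured on other arrays, part of the P2 differences were called again. The 3 ages share 1 estimate of the spread for each probe set, so calls at the later ages are not independent of those at P2. A probe set with a small estimate is called more easily at every age. Of the 112 probe sets higher at P2, 23 were called higher at P10 (20.5%) and 20 at 2 months (17.9%), where 2.82% and 4.27% of all probe sets were called higher. Of the 63 lower at P2, 19 were called lower at P10 (30.2%) and 14 at 2 months (22.2%), where 2.05% and 3.32% of all were. Of the 112, the log2 change was above 0 in 89 at P10 (79.5%) and in 68 at 2 months (60.7%), where 56.3% and 44.9% of all probe sets were. Of the 63, it was below 0 in 48 at P10 (76.2%) and in 49 at 2 months (77.8%), where 43.7% and 55.1% of all were. The opposite call was made for 2 and 3 of the 112 and for 1 and 4 of the 63. At neither later age were 79 of the 112 and 36 of the 63 called, and at both, in the direction of P2, 14 and 11 were. Among the 20 genes with a position that were called the same way at all 3 ages, 6 lay within 20 Mb of Nrl: Chd8, Mir686, Parp2, Pnp, Rb1 and Hnrnpc.

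Photoreceptor genes followed several courses. Sag was 984 ± 72.8 in the knockout and 4037 ± 373 in wild type at P10 (SD, n = 4 in each group here and below), and 4453 ± 663 and 5322 ± 614 at 2 months, so that its log2 change went from -2.44 at P2 through -2.03 to -0.26, which was not called (adjusted p = 0.587). Pdc kept a lower level at each age, with changes of -2.20, -1.96 and -0.92. Pde6b, by contrast, was 28.8 ± 7.13 in the knockout and 1148 ± 64.2 in wild type at P10; its difference grew by -3.96 ± 0.18 from P2 to P10 in the test of that change (limma adjusted p = 3.14e-15). Rom1 and Abca4 also fell further, by -1.12 ± 0.16 and -0.96 ± 0.13 (adjusted p = 1.77e-05 and 1.78e-05).

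Gnat1 and Reep6, not called at P2, were called at P10. Gnat1 was 14.6 ± 5.70 in the knockout and 1249 ± 404 in wild type at P10, and the change of its difference from P2 was -6.10 ± 0.50 (limma adjusted p = 1.37e-09). Reep6 had a change of -3.11 ± 0.13 (adjusted p = 5.49e-16). The cone genes Gnat2 and Opn1sw moved up, by 2.28 ± 0.18 and 2.70 ± 0.17 (adjusted p = 1.13e-09 and 1.21e-11). Opn1sw reached 3902 ± 299 in the knockout against 464 ± 43.6 in wild type at P10.

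The differences of the 3 collagens, Pttg1 and Dlx2 were not called at P10, and for these 5 genes the tests of the change from P2 passed; for Pola1, Pcna and Mcm3 they did not (adjusted p = 0.316, 0.0645 and 0.759). The log2 change at P10 was -0.06 for Col4a1, -0.16 for Col4a2, 0.10 for Col5a2, -0.25 for Pttg1 and 0.11 for Dlx2. The change of the difference from P2 was -1.02 ± 0.14 for Col4a1 (limma adjusted p = 2.36e-05), -0.59 ± 0.09 for Col4a2 (adjusted p = 0.000170) and -0.76 ± 0.18 for Col5a2 (adjusted p = 0.0133). It was -0.94 ± 0.11 for Pttg1 (adjusted p = 9.96e-07) and -0.60 ± 0.13 for Dlx2 (adjusted p = 0.00576). Col4a1 was 237 ± 19.0 in the knockout and 247 ± 23.0 in wild type at P10. Fezf2 turned from lower to higher, with 0.36 ± 0.08 at P10 (adjusted p = 0.00307) and 0.05, not called, at 2 months. Ssr1 kept its rise, with 1.09 at P10 and 1.04 at 2 months.

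**Figure D5:**
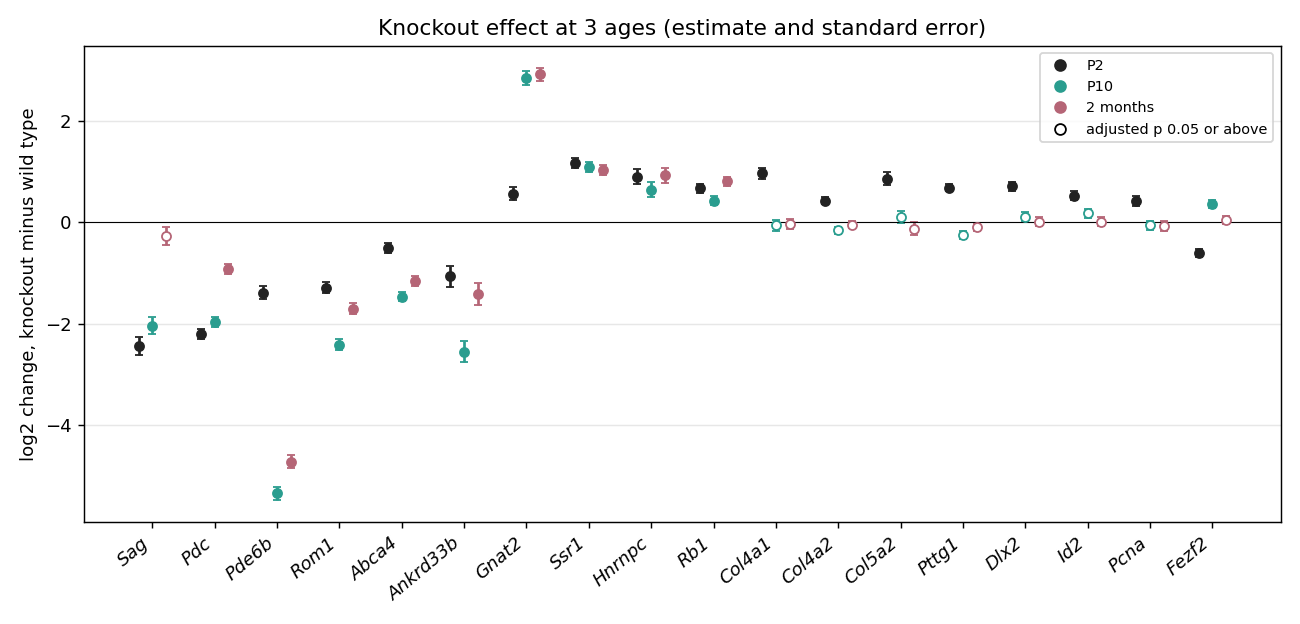
Log2 change, knockout minus wild type, with its standard error, of 18 genes at P2 (black), P10 (green) and 2 months (red), with n = 4 arrays per genotype and age and open points for changes not called. Pde6b, Rom1 and Abca4 lie lower at P10 than at P2, Gnat2 lies higher, the collagens, Pttg1, Dlx2, Id2 and Pcna lie near 0 at both later ages, and Ssr1 lies near 1 at all 3.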

How the data were processed

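The authors deposited 1 intensity per probe set and array, on a linear scale, and per the submitters' processing notes these come from RMA; its version, and whether all arrays entered 1 normalisation, are not given in the sources used here. The 66 array controls among 12488 probe sets were dropped. Platform annotation gave 1 gene symbol to 10833 of the other 12422 (8251 genes), several to 396 and none to 1193, and the last 2 kinds were tested but not named.

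Intensities were log2-transformed and fitted in R 4.3.3 with limma 3.58.1 (lmFit, eBayes) as 6 group means over all 24 arrays, so that the 3 ages share 1 estimate of the spread; the P2, P10 and 2-month contrasts and the P2-to-P10 interaction were taken from it. The named genes were Nrl, the 15 largest called rises and 15 largest called falls without overlap between genotypes, called list members, and up to 3 members of each of 25 lists with the largest change. The lists hold 573 genes, 447 of them measured. The members and lists were chosen with earlier results of these data known. Promoters were searched in the 200 bases before the start, shorter than the window first planned. The number of arrays limits the precision. On simulated data the P2 test recovered 32%, 82%, 100% and 100% of 50 genes each at log2 changes of 0.3, 0.5, 1 and 2, with 10 false calls over 12422 probe sets. The simulated noise was independent between values, with no deviation shared across an array. In the real data, leaving out 1 array gave 84 to 552 calls, so these rates may not hold there. Alternatives tried were other normalisations, filters, moderation, array weights, thresholds, a replicate block and leaving out arrays. Figures were drawn with matplotlib 3.10.9 in Python 3.11.15.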

Additional observations from a re-analysis of the deposited data

Results flagged for a closer look

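Of 192 groups of 4 arrays tested for an array far from the rest, 12 were flagged, where chance flags about 1 in 20 groups. Lens crystallins gave 4 of the 12: wild-type replicate 1 was far above the others for Crygd (550), Cryge (876) and Cryba1 (185), and knockout replicate 3 for Cryba1 (714). Sag was far lower in knockout replicate 2 (26.7), as was Reep6 (58.7), and Hsp90aa1 was far lower in knockout replicate 3 (1355), where Wnt7a was far higher (23.1). Eif2s3y was far lower in knockout replicate 1 (28.4). Pkig was far higher in wild-type replicate 4 (488), Dkk3 in wild-type replicate 2 (1528) and Nrl in wild-type replicate 1 (61.5), the last over a range of under 2 intensity units.

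The knockout effect differed between P2 and P10, by the limma interaction test, in 23 of 96 named genes. The log2 change of the effect was downward for the rod and shared photoreceptor genes Gnat1 (-6.10), Pde6b (-3.96), Reep6 (-3.11), Rom1 (-1.12) and Abca4 (-0.96), and for Ankrd33b (-1.49) and Nrl (-1.20). It was upward for the cone genes Opn1sw (2.70), Gnat2 (2.28) and Gnb3 (0.91). Rises of P2 that were not called at P10 gave Col4a1 (-1.02), Pttg1 (-0.94), Col5a2 (-0.76), D17H6S56E-5 (-0.66), Dlx2 (-0.60), Col4a2 (-0.59), Pgk1 (-0.50) and Pgam1 (-0.45). Pgk1 and Pgam1 were called lower at 2 months (-0.42 and -0.40, limma adjusted p = 0.000465 and 0.000248). Falls of P2 that were not called, or were turned, at P10 gave Fezf2 (0.96), Slc1a5 (0.57) and Ing1 (0.54); Ing1 was called lower again at 2 months (-0.49, limma adjusted p = 0.000476). Glul (-0.56) and Apoe (1.38), a lipid carrier of glia, were not called at P2.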

How the results depend on the processing

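The main count of 175 calls (112 higher, 63 lower) was 255 after quantile normalisation (103 lower), 41 from the P2 arrays alone (23 higher, 18 lower), 414 with array weights (311 higher, 103 lower), 66 at an adjusted p under 0.01 (44 higher, 22 lower) and 39 at 1.5-fold or more (20 higher, 19 lower). Leaving out 1 array gave 84 to 552 calls, 53 to 334 of them higher and 31 to 218 lower, and leaving out replicate 1 of both genotypes, chosen after seeing the data, gave 88 (51 higher, 37 lower). Deviations of same-numbered P2 arrays of the 2 genotypes correlated at -0.18, -0.09, 0.13 and 0.12. Arrays with different numbers gave -0.33 to 0.24. Whether same-numbered arrays share a litter or batch is not given in the labels, and these correlations cannot decide it. A replicate block on the P2 arrays gave 23 calls (13 higher, 10 lower), and over all ages 464 (315 higher, 149 lower). Of 48 called genes that are named, 16 were called under every alternative fit that tested them, 32 under every omission of 1 array, and none changed sign in the fits that tested them; 9 of the 48, among them Col5a2, Hnrnpc and Rb1 of the 16, were too dim for the fit to bright probe sets only. The 16 were C330007P06Rik, Col4a1, Col5a2, Dctn5, Fezf2, Hnrnpc, Hnrnpl, Ing1, Pdc, Pde6b, Pkig, Pttg1, Rb1, Rom1, Sag and Ssr1. Of 46 called genes with more than 1 probe set, 13 had a probe set of the other sign. The causes were not tested. The deposited values carry no detection calls, so low intensities cannot be set against background.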

Other observations

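Some probe sets outside the rule for named genes stood out and are named after their values were seen. A dimmer probe set of Sox11, a transcription factor of immature neurons, averaged 159 in the knockout and 45.3 in wild type at P2, a log2 change of 1.80 (limma adjusted p = 5.96e-08), while the brightest Sox11 probe set gave 0.52 (adjusted p = 0.0506). The metal-binding proteins Mt1 and Mt2 were lower at P2, by -0.55 and -0.41 on the log2 scale, and were called higher at 2 months, by 0.47 and 0.30. Zfp36l2, which binds AU-rich elements of mRNA, was higher by 0.48 at P2 and lower by -0.98 at P10 and -1.88 at 2 months (each called by limma). Its 2 other probe sets gave 0.11 and 0.17 at P2, -0.18 and -0.09 at P10 and -0.41 and -0.33 at 2 months, and among these only the last was called (adjusted p = 0.0335).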
